A study of Mus musculus with 16 samples.

Results

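The 10 genes described here encode HSF1, the transcription factor of the heat shock response, and 9 chaperones or co-chaperones of that response: the stress-inducible HSP70 pair *Hspa1a* and *Hspa1b*, the constitutive HSP70 *Hspa8*, the HSP110 gene *Hsph1*, the inducible cytosolic HSP90 *Hsp90aa1*, the small heat shock protein *Hspb1*, the J-domain proteins *Dnaja1* and *Dnajb1*, and *Bag3*. They were taken from the count table by gene symbol, and all 10 were found among its 55487 gene IDs, of which 44374 had a read. Skin cells of mice were sorted by flow cytometry on CD45, the pan-leukocyte surface protein, into a CD45+ (immune) and a CD45- (stromal, that is non-immune) fraction. Each fraction was taken from skin 6 h after it had been stretched by hypobaric pressure (suction) and from unstretched skin of the same area, which served as the control. The 4 groups held 4 libraries each: immune stretched (numbered 1, 2, 7 and 8 in the sample titles), immune control (3 to 6), stromal stretched (5 to 8) and stromal control (1 to 4). No strain, age, sex or allele is given for the mice, and nothing states that the samples of a group came from separate animals, so the p-values below reflect the spread among the samples alone, which could be technical. The question was which heat shock genes differed 6 h after stretch, and how the fractions differed in them.

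HSF1 is held inactive by chaperones in unstressed cells and, when unfolded proteins occupy those chaperones, assembles into trimers that bind inverted repeats of the unit nGAAn in the promoters of chaperone genes. Its activity is set largely after translation, so the amount of its mRNA is not a measure of its activity. HSP70 proteins bind unfolded stretches of a client, J-domain proteins deliver the client and trigger ATP hydrolysis, HSP110 and BAG proteins release the nucleotide, HSP90 acts on clients that are nearly folded, and small heat shock proteins hold unfolded proteins without ATP. In skin these genes respond to heat, ultraviolet light and mechanical load, and the procedure that frees cells from the tissue is also known to induce them.

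The promoters of the genes are shown first. Whether their sequences bear on the levels described below was not tested. RefSeq windows on GRCm38.p6 (250 bases before to 50 bases after a transcription start) were found for 7 of the 10 genes. *Hsf1*, *Hspa8* and *Hsp90aa1* had no entry. The windows were searched for a run of 3 alternating units, GAANNTTCNNGAA or its reverse complement TTCNNGAANNTTC, and for a pair of units, GAANNTTC or TTCNNGAA, each of which reads the same on both strands and lies inside the longer run. The run of 3 was present in 1 of the 7 genes, *Hsph1*, and in 0.66% of all 27025 genes with a window. A pair was present in 6 of the 7, with *Dnajb1* the exception, and in 16.97% of all genes. In the sequences below, written 5′ to 3′ on the strand of the gene, the capitals mark these matches, which are letters in a window and not shown binding sites. *Hsph1* is shown for its run of 3 units and a separate pair, *Hspb1* for its 2 pairs, *Hspa1a* and *Hspa1b* because their windows are nearly identical, and *Bag3* because it was called between the fractions in both conditions.
Hsph1 (chr5:149636266-149636565, minus strand): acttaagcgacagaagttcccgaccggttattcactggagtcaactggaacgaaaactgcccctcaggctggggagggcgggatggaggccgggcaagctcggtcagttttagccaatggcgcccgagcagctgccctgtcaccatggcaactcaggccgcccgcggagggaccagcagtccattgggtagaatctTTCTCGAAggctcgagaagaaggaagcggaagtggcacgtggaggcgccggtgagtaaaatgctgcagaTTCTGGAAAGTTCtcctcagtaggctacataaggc
Hspb1 (chr5:135887669-135887968, plus strand): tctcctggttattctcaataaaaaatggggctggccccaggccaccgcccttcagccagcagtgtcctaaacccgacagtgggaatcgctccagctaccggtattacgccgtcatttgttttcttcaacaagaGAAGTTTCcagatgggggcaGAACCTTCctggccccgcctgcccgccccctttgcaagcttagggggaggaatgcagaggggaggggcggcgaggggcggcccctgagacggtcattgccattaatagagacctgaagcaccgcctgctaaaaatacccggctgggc
Hspa1a (chr17:34972107-34972406, minus strand): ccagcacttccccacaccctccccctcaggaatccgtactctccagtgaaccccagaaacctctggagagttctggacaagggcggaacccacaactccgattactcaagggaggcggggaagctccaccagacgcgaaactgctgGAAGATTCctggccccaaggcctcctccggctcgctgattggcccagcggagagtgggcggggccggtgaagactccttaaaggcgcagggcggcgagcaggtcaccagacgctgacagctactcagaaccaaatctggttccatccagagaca
Hspa1b (chr17:34959189-34959488, minus strand): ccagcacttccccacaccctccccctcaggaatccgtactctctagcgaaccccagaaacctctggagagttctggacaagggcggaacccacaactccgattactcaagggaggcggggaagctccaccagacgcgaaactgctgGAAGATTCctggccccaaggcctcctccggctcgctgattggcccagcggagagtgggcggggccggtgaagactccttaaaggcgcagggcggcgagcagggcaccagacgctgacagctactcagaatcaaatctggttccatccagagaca
Bag3 (chr7:128523333-128523632, plus strand): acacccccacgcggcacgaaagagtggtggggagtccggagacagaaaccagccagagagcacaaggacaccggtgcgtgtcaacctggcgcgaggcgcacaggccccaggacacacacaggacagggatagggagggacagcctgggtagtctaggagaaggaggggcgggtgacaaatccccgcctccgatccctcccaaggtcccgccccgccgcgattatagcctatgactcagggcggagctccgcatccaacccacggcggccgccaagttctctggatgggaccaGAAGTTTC
The run of 3 of *Hsph1* begins 15 bases after the annotated start in this window and its separate pair 54 bases before it. In a second window with another start they lie 36 bases after and 33 bases before it. The 2 pairs of *Hspb1* begin 117 and 97 bases before the start, and that of *Bag3* 42 bases after it. *Hspa1a* and *Hspa1b* hold the same pair 104 bases before the start, and 296 of the 300 bases of their windows are the same (98.7%).

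The libraries held 7018743 to 20095580 counts in the immune stretched group and 2645421 to 6662268 in the immune control group, against 21955174 to 26944965 in the stromal stretched and 13563586 to 20467010 in the stromal control group. Depth was thus higher in stretched than in control libraries of the same fraction, without overlap, and its part in the results was not tested. The sort was reflected in the markers: all 12 immune cell markers were called higher in the immune than in the stromal fraction in stretched and in control skin, and 9 of 10 fibroblast markers were called lower in both. Blood endothelial markers went against the label of the sort, with 8 of 10 called higher in the immune fraction in stretched and 9 of 10 in control skin, at a summed level of 84.6 to 365.1 CPM (counts scaled to the same library total) in immune stretched and 148.6 to 878.3 CPM in immune control libraries. Some libraries stood apart. Reads on olfactory and vomeronasal receptor genes made up 5667.91 CPM in immune control 4, 392.84 in stromal stretched 7 and 192.02 in stromal stretched 8, and 17.45 to 64.52 CPM in the others. The summed neutrophil markers reached 36053.7 CPM in immune stretched 2, and 347.6 to 9657.6 CPM in the other immune libraries. Values without these libraries follow beside *Hsf1* and *Hsp90aa1* and beside each of the 10 genes that was called.

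Each gene was read well above the detection limit. Raw counts of the 9 chaperone genes ran from 192 to 113692 per library, and those of *Hsf1* from 31 in an immune control library to 1878 in a stromal stretched library. To compare genes with one another, TMM-scaled CPM was divided by the length in kilobases of the longest annotated transcript. On this per-length scale *Hspa8*, the housekeeping HSP70, led in 3 of the 4 groups, at 1104 ± 420 CPM per kb in immune stretched, 1165 ± 156 in stromal stretched and 1250 ± 243 in stromal control libraries (SD, n = 4 each). In immune control libraries *Hsp90aa1* stood first at 741 ± 124 CPM per kb, followed by *Hspa1b* at 658 ± 113 and *Hspa8* at 619.8 ± 215, and the ranges of these 3 genes overlapped. *Hsf1* was last in all 4 groups, at 14.8 ± 3.97 CPM per kb in immune stretched, 4.97 ± 3.65 in immune control, 24.1 ± 3.54 in stromal stretched and 15.4 ± 0.491 in stromal control libraries. Its range did not reach that of the next gene in any group. Between these ends, most neighbours in the order overlapped. The exceptions were *Hspa8* above the second gene in both stromal groups, *Bag3* above *Dnaja1* in stromal stretched, and *Dnaja1* above *Hsph1* in stromal control libraries. The order depends on the length used, which was 5622 bases for *Dnaja1* and 2562 for *Bag3*. Before division by length, *Dnaja1* lay above *Bag3* in stromal stretched libraries, at 700.1 to 891.7 against 411.7 to 620.0 CPM.

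**Figure D1:**
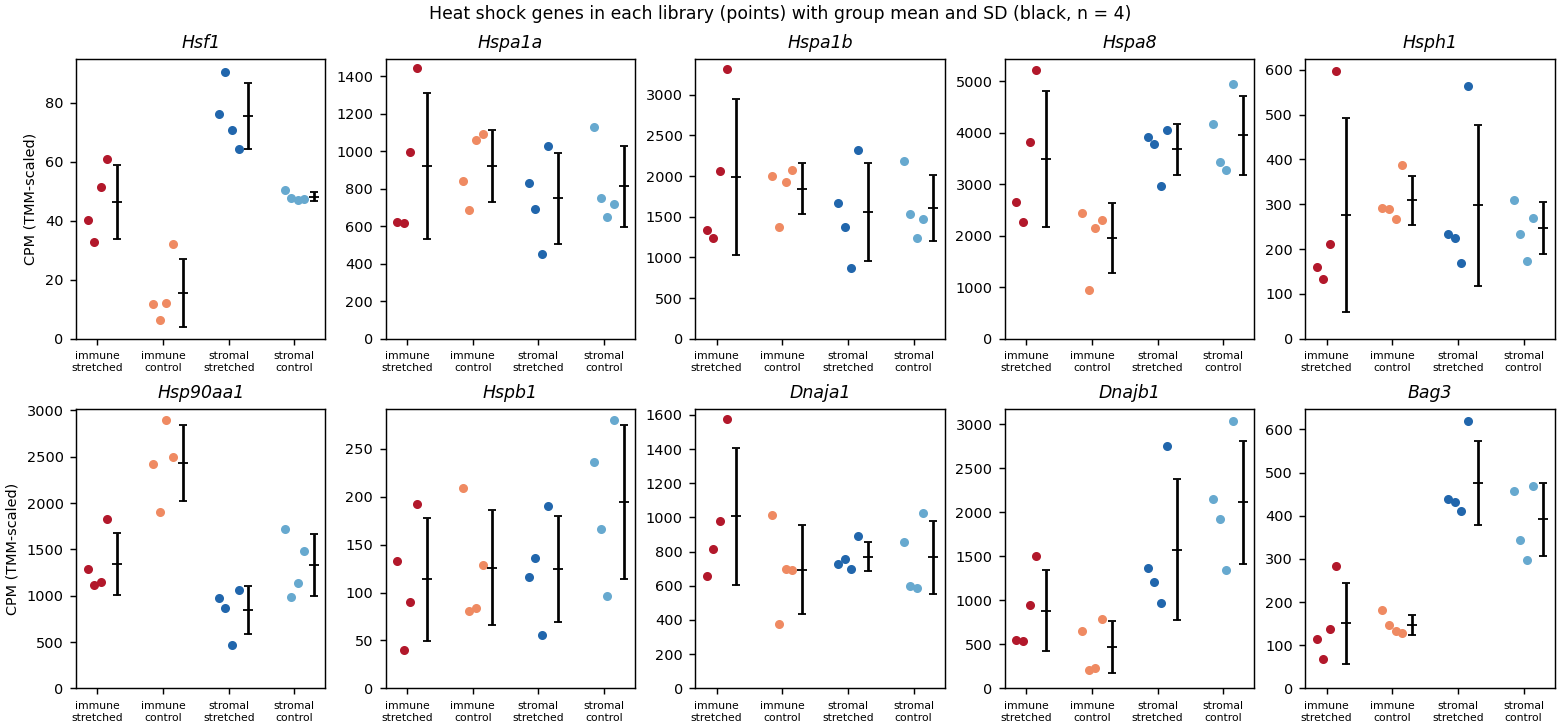
TMM-scaled CPM of the 10 heat shock genes in each of the 16 libraries, with immune stretched, immune control, stromal stretched and stromal control groups from left to right, and each group's mean and SD (n = 4) in black. *Hsf1* lay at 32.76 to 61.06 CPM in immune stretched against 6.33 to 32.26 in immune control libraries, and *Bag3* was lower in all immune than in all stromal libraries.

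The heat shock genes showed no shared direction after stretch. In the immune fraction 4 of the 10 fitted log2 fold changes were positive (median -0.14, against -0.02 over all 14183 genes tested), and in the stromal fraction 3 of 10 were positive (median -0.15, against 0.01 over all 16074 genes). None of the 10 passed an adjusted p of 0.05 in edgeR's quasi-likelihood test in either fraction. The background share of called genes was 0.0% in the immune and 4.98% in the stromal fraction. At an unadjusted p under 0.05 the same test gave 2 of the 10 in each fraction, *Hsf1* and *Hsp90aa1* both times, against 17.4% of all genes in the immune and 26.8% in the stromal fraction. DESeq2 called 2 of the 10 in the immune fraction (*Hsf1* and *Hsp90aa1*, background 5.51%) and 1 in the stromal (*Hsf1*, background 14.4%). Limma-voom called 1 in each, *Hsp90aa1* in the immune (background 6.26%) and *Hsf1* in the stromal fraction (background 22.4%).

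*Hsf1* had the highest fitted stretch effect of the 10 in both fractions. In the immune fraction it stood at 40.17, 32.76, 51.43 and 61.06 CPM in stretched libraries 1, 2, 7 and 8, against 11.74, 6.33, 11.96 and 32.26 CPM in control libraries 3 to 6. The groups did not overlap, but the highest control library and the lowest stretched library, which is the one rich in neutrophil markers, nearly met. The fitted log2 fold change was 1.43 ± 0.40 (SE), an estimate of 2.69-fold, with an adjusted p of 0.165 in edgeR. It was 1.21 ± 0.40 without immune control 4, which held the most receptor reads, and 1.54 ± 0.41 without immune stretched 2, with adjusted p of 0.258 and 0.0933. Stromal *Hsf1* stood at 76.1, 90.53, 70.9 and 64.46 CPM in stretched libraries 5 to 8, against 50.45, 47.87, 47.09 and 47.33 CPM in control libraries 1 to 4. The 4 controls lay within a narrow band and every stretched library lay above it. The log2 fold change was 0.57 ± 0.15 (1.48-fold), with an adjusted p of 0.0543 in edgeR, and 0.67 ± 0.17 (adjusted p = 0.267) without stromal stretched 7 and 8. Groups free of overlap were found for 1 of the 10 genes in the stromal fraction (17.9% of all genes) and for 2 of the 10 in the immune fraction (11.2% of all genes). The stromal count lies below its share, and the immune count rests on 2 genes.

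*Hsp90aa1*, which encodes the stress-inducible cytosolic HSP90, had lower fitted values after stretch in both fractions. In the immune fraction it stood at 1285, 1112, 1152 and 1833 CPM in stretched libraries 1, 2, 7 and 8, against 2425, 1904, 2898 and 2494 CPM in control libraries 3 to 6. The stretched libraries lay below the control libraries without overlap. That held in this direction for 2.81% and in either direction for 11.2% of all genes. The log2 fold change was -1.05 ± 0.33 with an adjusted p of 0.191 in edgeR, -0.98 ± 0.34 without immune stretched 2 and -1.06 ± 0.29 without immune control 4. Stromal libraries gave 970.2, 868.4, 470.2 and 1067 CPM in stretched libraries 5 to 8, against 1721, 988.3, 1137 and 1479 CPM in control libraries 1 to 4. The ranges overlapped, with stretched 7 lowest. The log2 fold change was -0.74 ± 0.28 (adjusted p = 0.124), and -0.64 ± 0.28 without stromal stretched 7 and 8.

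The inducible HSP70 pair showed no difference beyond its spread. *Hspa1a* stood at 619.9 to 1442 CPM in immune stretched against 684.5 to 1092 CPM in immune control libraries, and at 452.1 to 1027 CPM in stromal stretched against 649.5 to 1129 CPM in stromal control libraries. Its log2 fold changes were -0.19 ± 0.35 in the immune and -0.20 ± 0.28 in the stromal fraction, with adjusted p of 0.798 and 0.684. *Hspa1b* gave -0.08 ± 0.38 and -0.13 ± 0.30, with adjusted p of 0.928 and 0.827. The 2 genes share much of their sequence (58.8% of the 50-base stretches of *Hspa1a* occur in *Hspa1b*), so the authors' counting could have split or dropped their reads. With their reads summed, the log2 fold change was -0.12 ± 0.39 in the immune and -0.15 ± 0.30 in the stromal fraction. The ratio of *Hspa1b* to *Hspa1a* reads lay between 1.82 and 2.38 in all 16 libraries.

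*Hspa8*, which encodes the constitutive HSC70, stood at 2652, 2266, 3813 and 5213 CPM in immune stretched libraries 1, 2, 7 and 8, against 2435, 954.9, 2141 and 2298 CPM in immune control libraries 3 to 6. The stretched libraries reached higher, but the lowest of them fell among the controls. The log2 fold change was 0.67 ± 0.40 (adjusted p = 0.39), and 0.49 ± 0.36 without immune control 4. Stromal *Hspa8* stood at 2960 to 4058 CPM in stretched against 3266 to 4942 CPM in control libraries, with a log2 fold change of -0.18 ± 0.23. *Dnajb1*, the main stress-inducible partner of HSP70 among J-domain proteins, had an immune log2 fold change of 0.77 ± 0.48 (535.6 to 1507 CPM in stretched against 208.6 to 790.6 CPM in control libraries) and a stromal one of -0.50 ± 0.35 (968.1 to 2747 against 1342 to 3032 CPM). *Dnaja1*, another HSP70 partner, gave 0.37 ± 0.36 and -0.07 ± 0.22. For *Hspa8* and *Dnajb1* the fitted values thus pointed in opposite directions in the 2 fractions.

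The remaining members had groups that overlapped in both fractions. *Hsph1*, whose product releases nucleotide from HSP70, gave -0.38 ± 0.45 in the immune and 0.19 ± 0.35 in the stromal fraction. Both values rested on library 8 of the stretched group: without it they were -1.10 ± 0.31 (adjusted p = 0.435) and -0.32 ± 0.25 (adjusted p = 0.493), so that the stromal value turned direction. *Bag3*, a co-chaperone of HSP70 in selective autophagy, gave -0.19 ± 0.40 and 0.20 ± 0.22. *Hspb1*, the small heat shock protein known as HSP25 in mice, gave -0.33 ± 0.44 in the immune and -0.72 ± 0.38 in the stromal fraction, with adjusted p of 0.719 and 0.244.

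**Figure D2:**
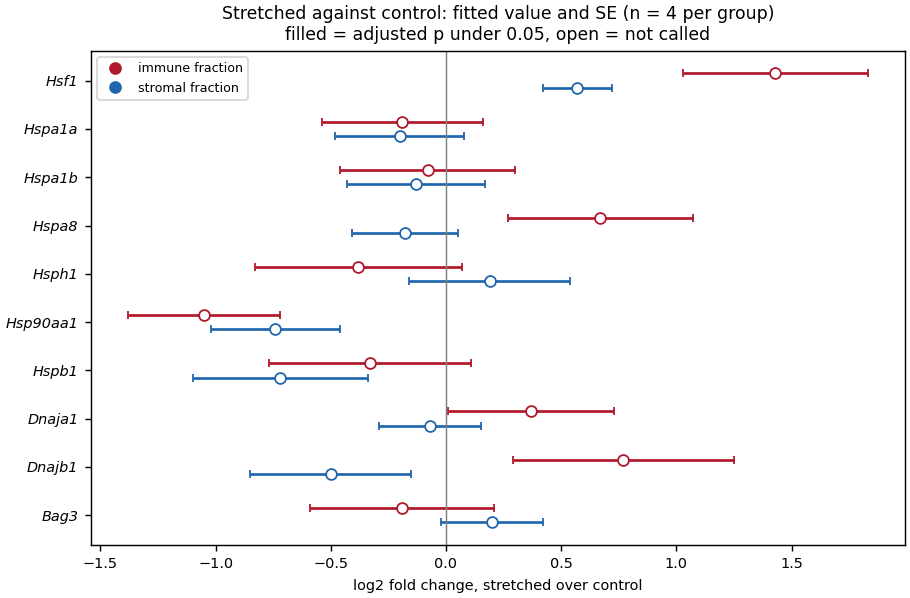
Fitted log2 fold change, stretched over control, with its SE for the 10 heat shock genes in the immune (red) and stromal (blue) fraction, n = 4 libraries per group. All symbols are open because no gene passed an adjusted p of 0.05, *Hsf1* lies farthest to the right in both fractions (1.43 and 0.57) and *Hsp90aa1* farthest to the left (-1.05 and -0.74).

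A test of the difference between the stretch effects of the fractions called none of the 10 genes in edgeR, DESeq2 or limma-voom. Over all 18295 genes, edgeR called 0.0%, DESeq2 8.88% and limma-voom 7.94%. At an unadjusted p under 0.05 edgeR gave 2 of the 10 (23.1% of all genes), *Dnajb1* with a difference of 1.43 ± 0.68 log2 units and *Hspa8* with 1.03 ± 0.48 (immune effect minus stromal effect, adjusted p = 0.216 and 0.211). *Hsf1* gave 1.01 ± 0.49 (adjusted p = 0.225). The median difference over the 10 genes was 0.42, against 0.03 over all genes, and 7 of the 10 were positive.

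Reads of inducible and constitutive forms were also set against each other within each library, where the scale of the library cancels. These ratios were chosen after the values had been seen and carry no test. The summed *Hspa1a* and *Hspa1b* reads divided by the *Hspa8* reads gave 0.741, 0.822, 0.802 and 0.913 in immune stretched libraries 1, 2, 7 and 8, against 1.17, 2.16, 1.39 and 1.38 in immune control libraries 3 to 6. All stretched immune libraries lay below all immune controls. In the stromal fraction the ratio was 0.640, 0.544, 0.448 and 0.826 in stretched libraries 5 to 8, against 0.796, 0.665, 0.579 and 0.444 in control libraries 1 to 4, and the groups overlapped. The ratio of *Hsp90aa1* to *Hsp90ab1*, the constitutive cytosolic HSP90, was 0.878, 0.900, 0.631 and 0.682 in immune stretched against 1.10, 1.54, 1.31 and 1.0 in immune control libraries. Stromal ratios were 0.527, 0.514, 0.442 and 0.496 in stretched against 0.674, 0.533, 0.597 and 0.804 in control libraries. Stretched libraries lay below control libraries in both fractions, by a narrow margin in the stromal one. A ratio shows unequal change and not which of its genes moved.

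**Figure D3:**
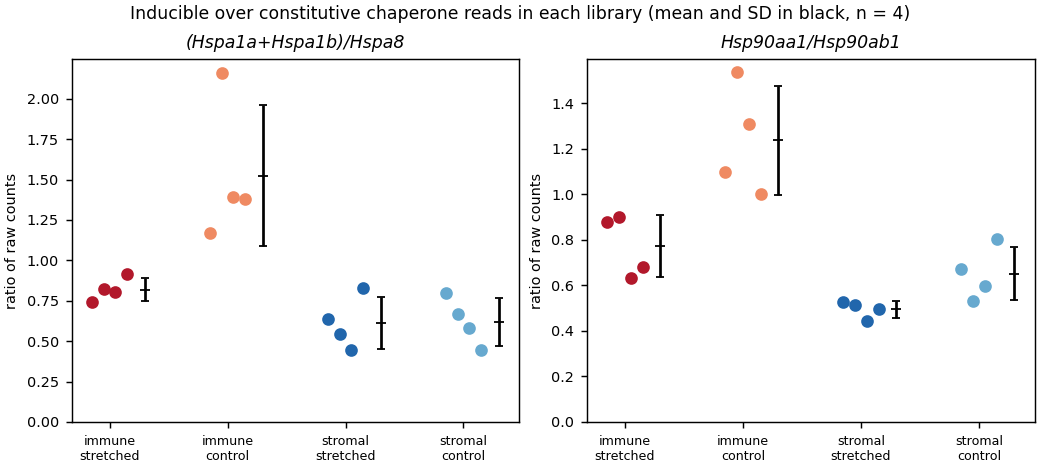
Ratio of raw counts in each library, (*Hspa1a* + *Hspa1b*) over *Hspa8* on the left and *Hsp90aa1* over *Hsp90ab1* on the right, with immune stretched, immune control, stromal stretched and stromal control groups from left to right and the mean and SD (n = 4) in black. The left ratio was 0.741 to 0.913 in immune stretched against 1.17 to 2.16 in immune control libraries, and overlapped between the stromal groups.

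Other features differed between stretched and control libraries. In the immune fraction the summed level of 12 immune cell markers was 27347.3 to 39767.3 CPM in stretched against 9952.7 to 19900.3 CPM in control libraries, and that of 16 immediate early genes was 22561.2 to 32778.8 against 18782.6 to 21938.9 CPM, both without overlap. In the stromal fraction 10 smooth muscle and pericyte markers summed to 309.5 to 355.6 CPM in stretched against 123.8 to 232.8 CPM in control libraries, also without overlap. The 14 skeletal muscle markers summed to 1077.3 to 2368.9 against 635.5 to 1559.2 CPM there, with overlap, and in each fraction some of those markers were listed at 0. No immune cell marker or immediate early gene was called singly in the immune fraction, where 0.0% of all genes were. In the stromal fraction 1 of 10 smooth muscle and pericyte markers and 2 of 12 tested skeletal muscle markers were called, all higher, against 4.98% of all genes called. Positive fitted values were found for 9 of the 10 (median 0.55) and 11 of the 12 (median 0.83). In the immune fraction 0 of 10 blood endothelial and 0 of 11 tested keratinocyte markers had positive fitted values (medians -1.02 and -1.07). In the stromal fraction 10 of 10 and 10 of 11 did (0.72 and 0.69). Fibroblast markers had 9 of 10 positive values in the immune fraction (median 0.80) and 5 of 10 in the stromal (0.09). Their sums overlapped in the immune fraction, at 1403.1 to 9939.0 CPM in stretched against 1492.9 to 7438.4 CPM in control libraries. Of 8 tested neutrophil markers, 8 had positive values in the immune fraction (median 1.31). The part of these features in the heat shock values was not tested. In sorted bulk samples, fewer cells of a type and less RNA per cell cannot be told apart.

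The wider chaperone network was read from lists of related genes. After stretch in the immune fraction, no gene of these lists was called. In the stromal fraction 2 of 94 tested genes were called, both lower (2.13%, against 2.93% of all genes). *Pfdn1*, a subunit of prefoldin, which hands clients to the cytosolic chaperonin, gave -0.90 ± 0.23 log2 units (49.9 ± 15.1 CPM in stretched against 88.0 ± 9.78 in control libraries, adjusted p = 0.0485 in edgeR). *Manf*, a secreted factor of the endoplasmic reticulum (ER) stress response, gave -1.24 ± 0.30 (170.2 ± 58.6 against 381.3 ± 136 CPM, adjusted p = 0.0466). Without stromal stretched 7 and 8 neither was called (-0.66 ± 0.21 and -1.02 ± 0.35, adjusted p = 0.286 and 0.292), and the calls over all genes dropped to 0, against 800 with these libraries. Both calls were also lost without stromal stretched 6, 7 or 8 and without stromal control 1, 2 or 3, with adjusted p up to 0.14, and that of *Manf* without stromal control 4 (adjusted p = 0.0584). Fits that left out no library lost both calls too. Adjusted p of *Pfdn1* and *Manf* was 0.544 and 0.508 with the number of detected genes in the model and 0.136 and 0.0727 with length and GC offsets. With all 16 libraries in 1 fit it was 0.149 and 0.127. DESeq2, limma-voom and the stricter filter kept both calls. *Pfdn1* was the 1 called of 14 genes of the TRiC/CCT chaperonin and prefoldin, of which 0 had a positive value, and *Manf* the 1 of 17 ER chaperones and unfolded protein response genes, of which 4 did. None passed among 3 tested heat shock factors and HSF1 regulators and 8 other HSP70, HSP110 and HSP90 genes. The same held for 6 genes listed as other small heat shock proteins, 10 other J-domain proteins and 18 co-chaperones and BAG proteins. It also held for 9 mitochondrial chaperones and 9 other stress-inducible genes. In the stromal fraction 4 more genes had an adjusted p between 0.05 and 0.06, and all 4 had lower fitted values in stretched libraries. They were *Creld2*, an ER stress gene (-1.05 ± 0.27, adjusted p = 0.05 after rounding and not under it), *Hsbp1*, which encodes an inhibitor of HSF1 trimers (-0.74 ± 0.20, adjusted p = 0.0514), the prefoldin subunit *Pfdn5* (-1.10 ± 0.30, adjusted p = 0.0566) and *Cryab*, the small heat shock protein alpha-B crystallin (-0.97 ± 0.27, adjusted p = 0.0588). The share of all genes in that band was not counted. With the number of detected genes in the model, the adjusted p of these 4 was 0.509 to 0.628 in edgeR. Without stromal stretched 7 and 8 it was 0.287 to 0.343. DESeq2 and limma-voom called each of them, as they did 14.4% and 22.4% of all genes. In the immune fraction the lowest adjusted p among the lists was 0.134, for *Xbp1*, a transcription factor of the unfolded protein response (1.12 ± 0.25). It was followed by the autophagy receptor *Sqstm1* (1.24 ± 0.31, adjusted p = 0.153), the mitochondrial co-chaperonin *Hspe1* (-1.0 ± 0.25, adjusted p = 0.154) and the HSP90 co-chaperone *Cdc37* (1.0 ± 0.27, adjusted p = 0.164).

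More of the heat shock genes were called between the fractions than between stretched and control skin. The comparisons share libraries, since the same immune and stromal samples enter both kinds. In stretched skin 2 of the 10 genes were called between immune and stromal cells, both lower in immune cells, against a background of 49.0% called (25.1% lower). In control skin 5 of the 10 were called, 4 lower and 1 higher in immune cells, against a background of 49.4% (22.8% lower and 26.6% higher). The counts are thus below and at the share of all genes. Groups were free of overlap for 3 of the 10 in stretched (48.7% of all genes) and for 5 of the 10 in control skin (47.2%).

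*Bag3* was called in both. It stood at 115.1, 67.18, 136.5 and 284.6 CPM in immune stretched libraries 1, 2, 7 and 8, against 437.8, 432.3, 411.7 and 620.0 CPM in stromal stretched libraries 5 to 8. In control skin it stood at 180.6, 147.2, 133.1 and 127.4 CPM in immune libraries 3 to 6, against 456.5, 342.8, 297.5 and 468.5 CPM in stromal libraries 1 to 4. Every immune library lay below every stromal library. The log2 fold change, immune over stromal, was -1.68 ± 0.41 in stretched (adjusted p = 0.0076) and -1.26 ± 0.26 in control skin (adjusted p = 0.00221, edgeR). The value in stretched skin was -1.53 ± 0.49 without stromal stretched 7 and 8 (adjusted p = 0.0496) and -1.37 ± 0.33 without immune stretched 2 (adjusted p = 0.00658). The call was lost when the number of detected genes entered the model (-1.27 ± 0.45, adjusted p = 0.0643). In control skin, without immune control 4, it was -1.41 ± 0.25 (adjusted p = 0.0015).

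*Hsf1* was lower in immune cells in both conditions, and the fold change was -0.72 ± 0.23 log2 units in stretched (adjusted p = 0.0259) and -1.51 ± 0.39 in control skin (adjusted p = 0.00803). Its values per library, given above, did not overlap between the fractions in either condition. The stretched call did not hold without immune stretched 2 (-0.52 ± 0.20, adjusted p = 0.0582) or without stromal stretched 7 and 8 (-0.84 ± 0.28, adjusted p = 0.0547). It was also lost without immune stretched 1 (adjusted p = 0.0787) and without stromal stretched 6 (adjusted p = 0.0611), and, among other settings, with all 16 libraries in 1 fit (adjusted p = 0.173), with the number of detected genes in the model (0.114), without the filter (0.0647) and with length and GC offsets (0.0616). The call in control skin held under each of 18 alternatives, and without immune control 4 the value was -1.36 ± 0.36 (adjusted p = 0.0104).

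In control skin 3 more of the 10 genes were called, *Dnajb1*, *Hspa8* and *Hsp90aa1*. *Dnajb1* stood at 648.6, 208.6, 230.5 and 790.6 CPM in immune control libraries 3 to 6, against 2147, 1926, 1342 and 3032 CPM in stromal control libraries 1 to 4. The highest immune library stayed below the lowest stromal one, and the log2 fold change was -2.07 ± 0.46 (adjusted p = 0.00351), and -1.93 ± 0.45 without immune control 4 (adjusted p = 0.00572). In stretched skin the value was -0.85 ± 0.44 (adjusted p = 0.134), and the groups overlapped. That value was called by limma-voom (-1.08, adjusted p = 0.0311) and, in edgeR, without immune stretched 8 (-1.25, adjusted p = 0.0423). *Hspa8* was lower in immune controls by all 4 libraries, with a log2 fold change of -0.90 ± 0.35 and an adjusted p of 0.0493, close to the threshold, and it was called under 10 of 18 alternatives. That call was lost without stromal control 1, 2 or 4 and without immune control 5 or 6 (adjusted p up to 0.0927). Without immune control 4 the value was -0.78 ± 0.27 (adjusted p = 0.0345). In stretched skin it gave -0.10 ± 0.34. *Hsp90aa1* went the other way, with all immune controls above all stromal controls, a log2 fold change of 1.0 ± 0.31 (adjusted p = 0.0201) in control and of 0.66 ± 0.31 (adjusted p = 0.105) in stretched skin. The call in control skin was lost without stromal control 2 or 3 and without immune control 5 or 6, and held without immune control 4 (0.97 ± 0.27, adjusted p = 0.0144). In stretched skin the gene was called by DESeq2 (0.69, adjusted p = 0.0406) and without immune stretched 2 (0.80, adjusted p = 0.0455). *Hspa1a*, *Hspa1b*, *Hsph1*, *Hspb1* and *Dnaja1* passed in neither condition, with log2 fold changes from -0.14 to 0.36 in stretched and from -0.51 to 0.47 in control skin. With length and GC offsets, however, *Hspa1a* (0.98 ± 0.295, adjusted p = 0.0184) and *Hspa1b* (0.95 ± 0.295, adjusted p = 0.0205) were called higher in immune controls, against 0.31 ± 0.29 and 0.33 ± 0.30 without them. *Hsph1* was called higher there by limma-voom (0.70 ± 0.24, adjusted p = 0.0236) and under a stricter filter (0.66 ± 0.255, adjusted p = 0.0487).

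**Figure D4:**
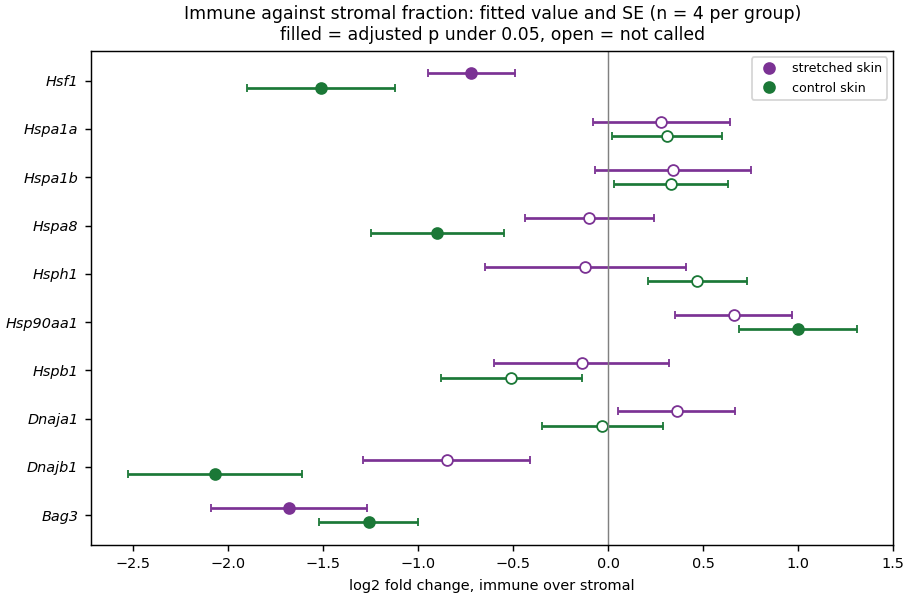
Fitted log2 fold change, immune over stromal, with its SE for the 10 heat shock genes in stretched (purple) and control skin (green), n = 4 libraries per group. Filled symbols mark an adjusted p under 0.05: *Bag3* and *Hsf1* in both conditions, and *Dnajb1*, *Hspa8* and *Hsp90aa1* in control skin.

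Of the 94 related genes tested between the fractions, 24 were called lower in immune cells in stretched skin (25.5%, against 25.1% of all genes) and 6 higher (6.38%, against 23.9%). In control skin 37 were called lower (39.4%, against 22.8% of all genes) and 6 higher (6.38%, against 26.6%). No test was made of these shares. In stretched skin, 5 of 6 genes listed as other small heat shock proteins were called lower in immune cells and 1 higher. In control skin 4 were called lower. The 1 called higher was *Hspb11*, and its call held under 10 of 19 alternatives and was lost without stromal stretched 5, 7 or 8 or immune stretched 1. *Cryab* stood at 126.2 ± 67.9 CPM in immune against 383.5 ± 117 CPM in stromal stretched libraries (-1.61 ± 0.44, adjusted p = 0.0129), and at 76.1 ± 37.1 against 710.4 ± 180 CPM in controls (-3.10 ± 0.38, adjusted p = 7.92e-05). *Hspb8*, a partner of BAG3, gave -2.16 ± 0.52 in stretched and -3.30 ± 0.42 in control skin, with adjusted p of 0.00715 and 0.000104. Muscle expresses several of these genes, and the 14 skeletal muscle markers summed to 169.0 to 764.5 CPM in immune stretched and 107.9 to 556.1 CPM in immune control libraries, below the stromal ranges above; their part in the result was not tested.

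The other lists are given with their share called lower in immune cells, which among all genes was 25.1% in stretched and 22.8% in control skin. Co-chaperones and BAG proteins were called lower for 4 of 18 genes in stretched (22.2%, below the share of all genes) and 8 of 18 in control skin (44.4%). Among 17 ER genes, 3 were called lower in stretched (17.6%, also below it) and 9 in control skin (52.9%). *Hspa5*, the ER HSP70 also called BiP, gave -1.65 in control skin (adjusted p = 0.0035, called under 18 of 18 alternatives). Its call in stretched skin (-0.80, adjusted p = 0.0488) held under 6 of 19 and was lost without any 1 of stromal stretched 5 to 8 or immune stretched 1, 2 or 7. Mitochondrial chaperones were called lower for 5 of 9 genes in both (55.6%). The chaperonin and prefoldin list had 0 of 14 called lower in stretched and 5 in control skin (35.7%). Other J-domain proteins were called lower for 2 of 10 genes in stretched and 3 of 10 in control skin, among them *Dnajb4*, at 168.7 ± 72.0 against 479.8 ± 59.9 CPM in stretched (-1.53 ± 0.33, adjusted p = 0.00412) and 94.8 ± 30.4 against 423.9 ± 48.2 CPM in control skin (-2.04 ± 0.26, adjusted p = 0.000103). Other HSP70, HSP110 and HSP90 genes were called lower for 3 of 8 genes in stretched (37.5%) and 1 of 8 in control skin (12.5%). Other stress-inducible genes were called lower for 2 of 9 in both (22.2%), among them *Serpinh1*, the collagen chaperone HSP47, which gave -2.95 ± 0.55 in stretched and -4.21 ± 0.46 in control skin. Of the 3 tested heat shock factors and HSF1 regulators none was called lower, and *Sirt1*, a deacetylase of HSF1, was called higher in immune cells in control skin (1.06 ± 0.28, adjusted p = 0.00846) but not with length and GC offsets (0.68, adjusted p = 0.0868).

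Within the groups, the heat shock genes went up and down together from library to library. After each gene's log2 CPM was centred on its group mean, the 36 pairs of the 9 chaperone genes had Pearson correlations of 0.53 to 0.98 over the 16 libraries, with a median of 0.71. The 9 pairs that include *Hsf1* had 0.19 to 0.68, with a median of 0.42. These are descriptions: the points of a pair share a library, its depth and its scale factor, and *Hspa1a* and *Hspa1b* also share sequence. The summed *Hspa1a* and *Hspa1b* were set against the other genes of a set of 18294, in which the pair counts as 1. Those most like the summed pair by this measure were *Hsp90ab1* (0.936), *Hsph1* (0.889), *Mrps6* (0.860), *Stip1* (0.838) and *Chordc1* (0.826), and *Hsp90aa1* came next (0.819). *Hsf1* ranked 1616.

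The libraries that set this pattern could be named. In immune stretched 8 all 10 genes lay above their group mean, by a median of 0.80 log2 units, and in stromal stretched 8 it was 9 of 10, by 0.46. In immune stretched 2 and stromal stretched 7 none of the 10 lay above it, with medians of -0.55 and -0.62. Among controls, stromal control 1 had all 10 above (0.30), and stromal control 2 and stromal control 3 had none (-0.10 and -0.34). Immune control 4 had 1 above (-0.46), and immune control 6 had 9 (0.23). How many of all genes lay above their group mean in each library was not counted. Immune stretched 2 is the neutrophil-rich library, and immune control 4 and stromal stretched 7 and 8 held the most receptor reads. Immune stretched 8 and stromal stretched 8 were the deepest of their groups, and immune stretched 2 and immune control 4 the shallowest. Immune control 6 was also the deepest of its group, whereas stromal control 1 was the shallowest of its own. The part of these features in the pattern was not tested. *Hsph1* stood at 160.5, 134.2, 210.6 and 596.9 CPM in immune stretched libraries 1, 2, 7 and 8, with an SD of 216.6 CPM, against 291.0, 289.5, 266.7 and 388.4 CPM in immune control libraries 3 to 6, with an SD of 54.2 CPM. Stromal values were 233.8, 225.4, 168.1 and 562.8 CPM in stretched libraries 5 to 8, against 309.8, 233.6, 174.1 and 269.1 CPM in control libraries 1 to 4. In both fractions 1 stretched library, number 8, was far above the other 3, and without it the gene's stretched values lay below all controls in the immune fraction. The labels do not say whether the same number marks the same animal.

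**Figure D5:**
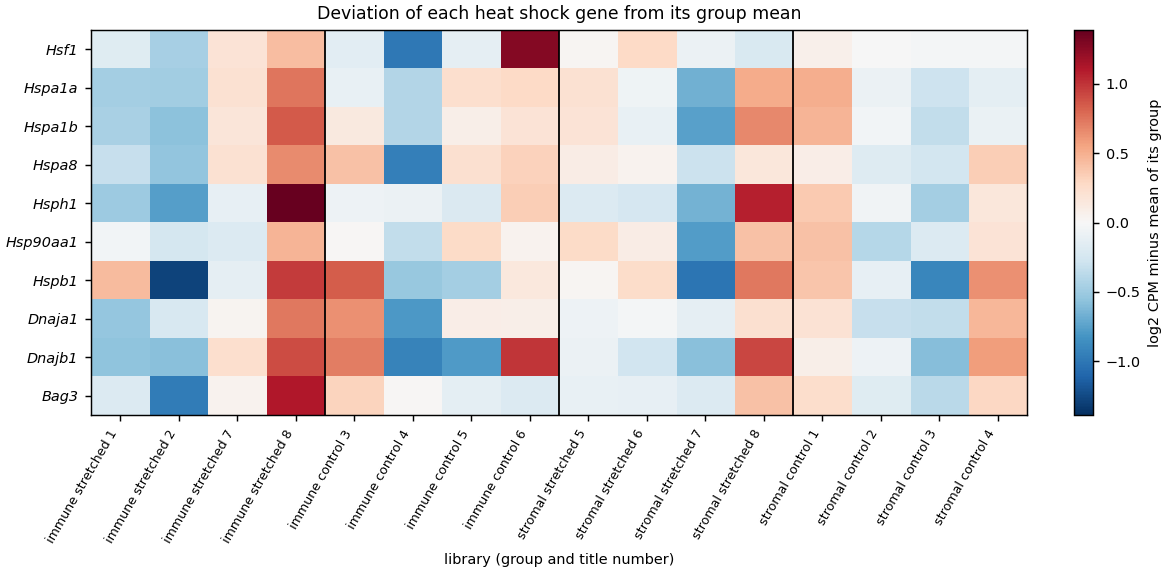
Log2 CPM of each of the 10 heat shock genes minus the mean of its group, for the 16 libraries in the order immune stretched, immune control, stromal stretched, stromal control (vertical lines part the groups). Red is above and blue below the group mean, and the columns of immune stretched 8 (10 of 10 above) and stromal stretched 7 (0 of 10 above) are of nearly 1 colour.

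The genes' positions on GRCm38 (GENCODE M21) bear on how well their reads can be placed. *Hspa1a* (ENSMUSG00000091971, chr17:34969190-34972156) and *Hspa1b* (ENSMUSG00000090877, chr17:34956436-34959238) are intronless neighbours on the minus strand, and 66.3% and 62.3% of their 50-base stretches occur in another gene. The share was 58.5% for *Hsp90aa1* (chr12:110690605-110702728), 52.7% for *Hspa8* (chr9:40800984-40810087), 51.6% for *Hspb1* (chr5:135887919-135889563) and 28.8% for *Dnaja1* (chr4:40722150-40737149). *Dnaja1* also overlaps *Smu1* on the other strand. *Hspa1a* likewise overlaps the protein-coding gene *Gm20481* on the other strand, in which 16.2% of its 50-base stretches occur. How reads that map to several places were counted is not given in the sources used here, so the levels of these 6 genes are uncertain. The share was 0.0% for *Hsf1* (chr15:76477422-76501913), *Hsph1* (chr5:149614287-149636376) and *Bag3* (chr7:128523616-128546981), and 0.4% for *Dnajb1* (chr8:83608193-83612653). *Bag3*, however, overlaps the annotated gene *2610306O10Rik* on its own strand.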

How the data were processed

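Per the labels' protocols, the SMART-Seq mRNA LP kit (cDNA) and Nextera XT (libraries) were used on RNA of sorted mouse skin cells. The submitters' processing notes name FastQC 0.11.9, STAR and mm10. Not given in the sources used here are the counter, strand setting and annotation. The authors deposited raw counts for each Ensembl gene, not normalized, and 0 columns had no sample. Symbols came from GENCODE M21, which matched 55394 IDs.

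Groups came from the labels' fraction and treatment. Each comparison was fitted on its own groups' libraries in edgeR 4.0.16 (R 4.3.3) with filterByExpr (minimum count 10), TMM factors, the quasi-likelihood F test, no covariate and Benjamini-Hochberg adjustment over all genes tested; genes under 0.05 were called. SEs come from the F statistic. CPM of single genes is scaled by TMM over all 16 libraries, and CPM summed over a list by the library total. All 10 genes passed the filter in every comparison. Alternatives included DESeq2 1.42.0 and limma-voom (limma 3.58.1). Alternatives that left out the same single library gave the same fit, and each was counted. Counts simulated with the depths and spread of these libraries were put through the same fits. In each simulation 200 genes drawn at random from those tested were changed, and the others had equal means. A 2-fold change was called in 1% of changed genes for immune stretch, 13.1% for stromal stretch and 0% for the difference. For a 4-fold change these shares were 37%, 81.4% and 13.5%. Between the fractions, a 2-fold change was called in 5.2% in control and 3.1% in stretched skin, and a 4-fold change in 52.2% and 61.1%. The real comparisons of the fractions called far more genes, 49.4% in control and 49.0% in stretched skin. The simulated shares are therefore no measure of power for the 10 genes. A gene not called was still not shown to be unchanged. Named related genes were those called or, failing that, of the 4 smallest p-values of their list. The 10 genes and the lists were chosen with earlier results of these data known. No molecular identifiers are named in the labels, so PCR copies may be among the reads. No library was a copy of another (chi-square over degrees of freedom at least 28.1 within groups).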

Additional observations from a re-analysis of the deposited data

Results flagged for a closer look

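In 3 of 40 sets of 4 libraries (10 genes in 4 groups), 1 library stood so far from the other 3 that its gap exceeded Dixon's 95% critical value for 4 samples. Chance alone flags about 1 in 20 sets, and the 10 genes are not independent. *Hsph1* reached 596.9 CPM in immune stretched 8 (gap 0.835 of the range) and 562.8 CPM in stromal stretched 8 (0.834), and *Bag3* reached 620.0 CPM in stromal stretched 8 (0.875). All 3 were the highest of their group and came from libraries numbered 8. Without stromal stretched 8 the stromal stretch effect of *Bag3* was 0.05 ± 0.23 log2 units, against 0.20 ± 0.22 with it.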

How the results depend on the processing

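Counts of called heat shock genes moved by at most 2 with the processing. In the immune stretch comparison the count of 0 became 2 with DESeq2, 1 with limma-voom and 1 with all 16 libraries in 1 fit (*Hsf1*, background 3.65%). In the stromal one the count of 0 became 1 (*Hsf1*) with DESeq2, limma-voom and a stricter filter of 50 reads in 4 libraries (background 11.6%). Leaving out 1 library at a time kept 0 in both, and 0 to 1 for the difference of the stretch effects (*Hsf1*, 1 without immune control 6). For immune against stromal cells in stretched skin, the 2 calls became 1 without the filter, with all 16 libraries in 1 fit, with length and GC offsets and without the receptor-read libraries, 0 with the number of detected genes as covariate, 3 with DESeq2 (*Hsp90aa1* added) and with limma-voom (*Dnajb1* added), and 1 to 3 when 1 library was left out. In control skin the 5 calls became 3 without the filter, 4 with RLE factors, 6 with limma-voom (*Hsph1* added), 7 with length and GC offsets (*Hspa1a* and *Hspa1b* added), and 3 to 5 when 1 library was left out. No called value reversed its sign. Same-numbered libraries of the 2 fractions correlated at -0.121 to 0.162, and 1 of 8 correlated best with its own number, so the numbers were not taken to pair samples. With the number as a replicate block, 0 genes were called in either stretch comparison, 1 in stretched skin and 4 in control skin. *Hsf1* then gave -0.35 ± 0.38 for stromal stretch and -0.13 ± 0.33 (adjusted p = 0.793) between the fractions in stretched skin. The related genes named were put through the same alternatives after the data had been seen. The causes of these shifts were not tested. *Hsf1* had the lowest read counts, 31 to 236 in immune control libraries.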
